A study of Homo sapiens with 2 samples.

Results

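The cytochrome P450 genes were followed through a map of m6A in Huh-7 cells. In m6A, or N6-methyladenosine, an adenosine within an RNA carries a methyl group. Huh-7 is an established human liver cancer line of hepatocyte origin, labelled wild type here and left untreated. The design holds 1 IP library, made from RNA fragments pulled down with an antibody against m6A, and 1 input library, which the labels list without the antibody. The members were the genes whose symbol is CYP, a family number, a subfamily letter and a member number, at any level, except CYP51A1, which belongs to cholesterol synthesis. That gave 32 of the 25105 genes with a level in the input library, and 63 of the 49746 deposited peaks carried their gene IDs. RefSeq calls 31 of the 32 protein-coding and the other, CYP2D7, a transcribed pseudogene. Levels are in FPKM, fragments scaled to transcript length and to sequencing depth. A peak is a region where the authors found more IP than input reads, and its fold, given on the log2 scale unless called a linear fold, is IP over input. Folds, regions and adjusted p are those of the authors' deposited peak table. With 1 library of each kind no value has a replicate check, so 2 members that stand next to each other in any order below may not differ, and no test was run.

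P450 enzymes are haem proteins that insert an oxygen atom into a substrate, with electrons passed on from NADPH by a partner protein. Families 1 to 3 mostly oxidise drugs and other foreign compounds, family 4 hydroxylates fatty acids, and other families make or break down bile acids, steroid hormones, vitamin D and retinoic acid. The adult liver holds most of the body's drug-metabolising P450, and hepatoma lines are known to keep little of it. m6A is placed by a nuclear methyltransferase, often near the stop codon and in the 3' UTR, within a short sequence context around the letters AC, and the proteins that read it bear on splicing, stability and translation of the RNA.

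The library carried the transcripts of its labelled cell. All 10 hepatocyte markers examined were listed, between 55.1 FPKM for HNF4A and 2379.7 FPKM for AFP. Of 5 adipocyte markers, looked at because the protocol text speaks of adipose RNA, 2 were listed and neither reached 1 FPKM (CIDEC 0.718, PLIN1 0.0690). The bile duct markers SOX9 (35.7), EPCAM (12.9) and KRT19 (11.7) were well above that, with KRT7 at 0.0386. Of 5 stellate cell and fibroblast markers 3 reached 1 FPKM, with PDGFRB highest at 1.46. The endothelial marker PECAM1 stood at 1.33 and the leukocyte markers CD14 and CD68 at 1.72 and 0.950, and the other 3 endothelial and 2 leukocyte markers were not listed. The part of such cells or programs in the values below was not tested.

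P450 transcripts were scarce in these cells. Of the 32 members 16 reached 1 FPKM, the level taken as expressed, a share of 50.0%, while 54.3% of all listed genes and 74.7% of listed protein-coding genes did. The median member stood at 0.814 FPKM and the median coding gene at 3.56. The levels of all members summed to 77.4 FPKM, and albumin alone was 15.5 times that sum. Of that sum 63.8% came from 4 genes, which were the members at 5 FPKM or more. They were CYP27A1 (22.1), CYP4F12 (9.38), CYP4F3 (9.22) and CYP26B1 (8.65), none of them a main drug-metabolising enzyme.

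**Figure D1:**
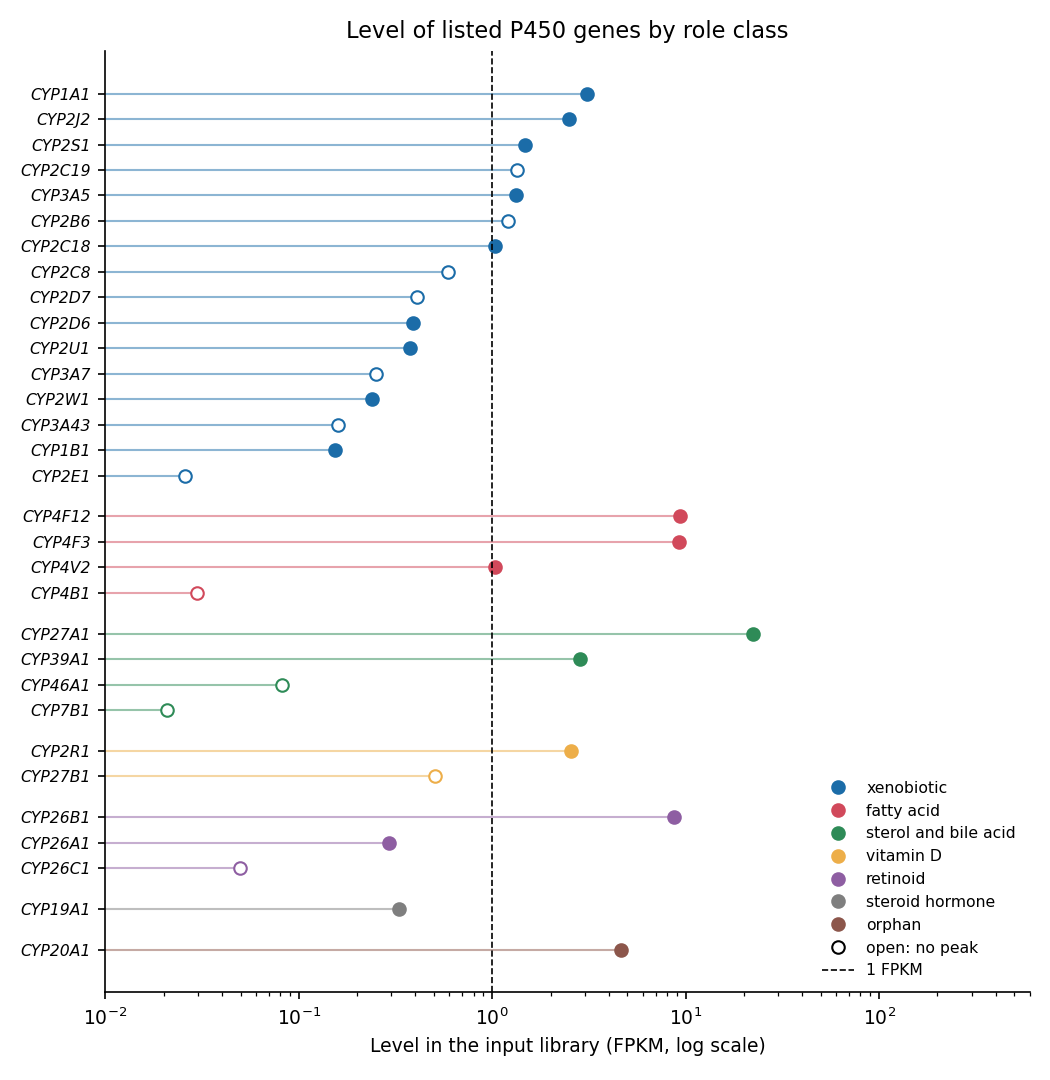
Level of 31 of the 32 listed P450 genes in the input library (x axis, FPKM, log scale), grouped by role. Filled points have 1 or more peaks, open points have none, and the dashed line marks 1 FPKM. CYP27A1 is highest at 22.1 FPKM, and the xenobiotic class stays at or under 3.10 FPKM.

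The class known for drug and xenobiotic oxidation held no listed gene at 5 FPKM or more. The class holds families 1, 2 (without CYP2R1) and 3, with a class median of 0.593 FPKM. Of its 17 listed members, which include the pseudogene CYP2D7, 8 reached 1 FPKM (47.1%). That share was 54.3% over all listed genes and 74.7% over listed coding genes. CYP1A1, which oxidises polycyclic aromatic hydrocarbons and is induced through the AHR receptor, was highest at 3.10 FPKM. CYP2J2, an epoxygenase of arachidonic acid, followed at 2.50, and CYP2S1, a mostly extrahepatic enzyme, at 1.47. The drug-metabolising enzymes CYP2C19 (1.35), CYP3A5 (1.32), CYP2B6 (1.20) and CYP2C18 (1.03) lay just above the limit, and none of their neighbouring levels can be told apart with 1 library. Under it stood CYP2C8 (0.593), CYP2D7 (0.407), CYP2D6 (0.387), the fatty acid hydroxylase CYP2U1 (0.374), CYP3A7, the fetal liver member of its family (0.251), CYP2W1 (0.238), CYP3A43 (0.159) and CYP1B1 (0.154). CYP2E1, which oxidises ethanol and is abundant in adult liver, was the lowest of the class at 0.0259 FPKM. Its listed span overlapped SCART1 (0.978 FPKM) on the same strand, and that of CYP3A7 overlapped CYP3A7-CYP3A51P (0.358 FPKM) on the same strand.

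Several P450 genes that an adult liver expresses had no listed level. Of 22 genes taken as adult liver P450 genes, 11 stood at 1 FPKM or more, 4 under it and 7 were not listed. The 7 were CYP1A2 (caffeine oxidation), CYP2A6 (nicotine oxidation), CYP3A4 (the main drug-metabolising enzyme of adult liver), CYP4A11 and CYP4F2 (fatty acid hydroxylases), CYP7A1 (the rate-limiting enzyme of classical bile acid synthesis) and CYP8B1 (the step that sets the cholic acid share). The 4 under 1 FPKM were CYP2C8, CYP2D6, CYP2E1 and CYP7B1. All listed levels are above 0, so a gene without one is only unlisted, and no level or limit can be given for it. RefSeq holds 54 protein-coding symbols of the same form besides CYP51A1, and 23 of them had no listed level. Beyond the 7 liver genes these were CYP2A7, CYP2A13 and CYP2F1, CYP4A22, CYP4F8, CYP4F11, CYP4F22, CYP4X1 and CYP4Z1 of the fatty acid family, the vitamin D hydroxylase CYP24A1, CYP27C1, and the steroid hormone enzymes CYP11A1, CYP11B1, CYP11B2, CYP17A1 and CYP21A2. The share of all RefSeq coding genes without a listed level was not counted. Whether P450 genes were unlisted more often than other genes is therefore not known.

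Of the 12 genes placed in the fatty acid class 8 had no listed level, and the other 4 differed widely in level. CYP4F12 and CYP4F3, omega-hydroxylases of which CYP4F3 acts on leukotriene B4, stood at 9.38 and 9.22 FPKM. CYP4V2, whose loss causes a crystalline retinal dystrophy, stood at 1.04, and CYP4B1, a mostly lung enzyme, at 0.0298. Among sterol and bile acid enzymes CYP27A1, the mitochondrial sterol 27-hydroxylase of the alternative bile acid route, was the highest member of all at 22.1 FPKM, above 94.8% of listed genes. CYP39A1, an oxysterol 7-alpha-hydroxylase, followed at 2.84, while CYP46A1, the brain cholesterol 24-hydroxylase (0.0821), and CYP7B1 (0.0208, the lowest member) stood under 0.1 FPKM. CYP7B1 takes the next step of the route that CYP27A1 opens.

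Levels differed among the retinoic acid and vitamin D enzymes. Of the retinoic acid hydroxylases, CYP26B1 stood at 8.65 FPKM, against 0.294 for CYP26A1 and 0.0499 for CYP26C1. CYP2R1, the vitamin D 25-hydroxylase, stood at 2.55, and CYP27B1, which makes the active hormone and sits mostly in kidney, at 0.503. CYP27B1 overlapped METTL1 (7.82 FPKM) on the same strand. Aromatase, CYP19A1, was the only listed steroid hormone enzyme, at 0.329, and CYP20A1, an orphan with no settled substrate, stood at 4.65.

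Peaks were found in 20 of the 32 members (62.5%), whereas 84.2% of listed coding genes had 1. The members' levels were lower, so the share was also taken by level. Of members at 1 FPKM or more 14 of 16 had a peak (87.5%), while 96.2% of coding genes at that level did. Under 1 FPKM the counts were 6 of 16 members (37.5%) and 48.8% of coding genes. A peak with an adjusted p under 0.001, by the authors' own values, was present in 14 members (43.8%), while 69.1% of listed coding genes had one. CYP2C19 (1.35 FPKM) and CYP2B6 (1.20 FPKM) were the expressed members without a peak.

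Where a peak was present its fold lay in the range of other genes. The median of the strongest peak over the 20 members was 2.21, a linear fold of 4.62, and over all coding genes with a peak it was 1.90 (quartiles 1.25 and 2.72). At 1 FPKM or more the medians were 2.21 over 14 members and 1.76 over coding genes, and under 1 FPKM they were 2.37 over 6 members and 2.69 over coding genes. A peak of 4-fold or more was present in 11 members (34.4%), 8 of them expressed, while 39.2% of listed coding genes had one. Set against coding genes of similar level, 10 of the 20 members lay above the median of their level range, 3 above its upper quartile (CYP1A1, CYP1B1 and CYP4F3) and 7 below its lower quartile (CYP27A1, CYP4F12, CYP26B1, CYP2S1, CYP2D6, CYP19A1 and CYP26A1).

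**Figure D2:**
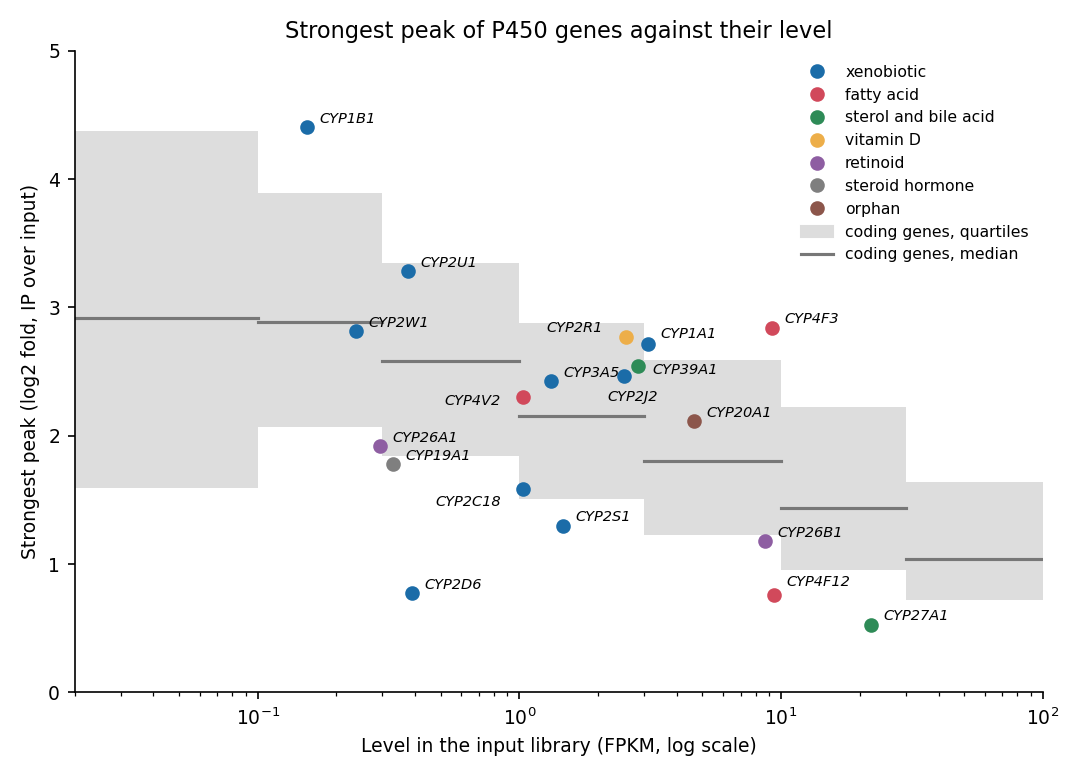
Strongest peak of 19 of the 20 P450 genes with a peak (y axis, log2 fold of IP over input) against the level in the input library (x axis, FPKM, log scale). Grey bands and lines give the quartiles and median over coding genes with a peak in 7 ranges of level, and CYP1B1 at 4.40, CYP4F3 at 2.84 and CYP1A1 at 2.71 lie above the bands of their ranges.

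CYP1A1 and CYP1B1, both AHR-responsive and the only listed members of family 1, had strong peaks at very different levels. CYP1A2 of the same family had neither a listed level nor a peak. CYP1A1 had 2 peaks of nearly equal fold, 2.71 in a coding exon (adjusted p 2.1e-32) and 2.62 in the 3' UTR (adjusted p 5.7e-30). CYP1B1, an estrogen and procarcinogen hydroxylase, had 3 peaks, all at an adjusted p under 0.001. They were 4.40 in the 5' UTR, the highest of all member peaks at a linear fold of 21.2, 4.26 in the 3' UTR and 3.64 in a coding exon. Its listed level of 0.154 FPKM rests on a row that names 1 transcript, and 2 of the 3 peaks were assigned to another transcript. The strongest peak spanned 34500 nt with its introns and overlapped a peak of 3.93 listed for CYP1B1-AS1 on the other strand, but the other CYP1B1 peaks overlapped none.

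The other xenobiotic members had between 0 and 6 peaks each. CYP2U1 had 3.28 in a coding exon and 1.83 in the 3' UTR, and CYP2W1, an enzyme found in fetal gut and colon tumours, had 2.81 in the 3' UTR with 2.09 and 1.93 in coding exons. Both genes stood under 0.5 FPKM, and the reads behind these folds are unknown. CYP2J2 had 2.47 in a 3' UTR and 1.69 in the 5' UTR, and CYP2S1 had 1.30 and 1.10, both in coding exons. In the CYP2C group CYP2C18 had 1.58 in its 3' UTR, while CYP2C8 and CYP2C19 had none. These genes lie in a cluster on chromosome 10 and are near-copies in sequence, so their reads can be split between them. CYP2D6 had 1 weak peak of 0.77 with an adjusted p of 0.061, and its near-identical pseudogene CYP2D7, 9.32 kb away, had none. The fetal member CYP3A7 and CYP3A43 had none either.

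CYP3A5, by contrast, had 6 peaks at 1.32 FPKM. The highest were 2.43 and 2.20, both given to the 3' UTR of a listed transcript, at 33.9 and 35.9% of the way along the gene, and 2.15 in an intron at 63.7% (adjusted p 1.2e-15). None of the 6 midpoints lay in the last 10% of the span. CYP3A5 is the only CYP3A gene of the listed 3 with a peak, and CYP3A5 and CYP3A7 are close copies whose reads can be split.

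CYP4F3 and CYP4F12 were alike in level and unlike in fold. They lie 10.2 kb apart on chromosome 19, on the same strand, at 9.22 and 9.38 FPKM. CYP4F3 had a peak of 2.84 (7.17-fold, adjusted p 3.3e-159) in its 3' UTR, at chr19:15659234-15660258 as the files give it with the start counted from 1. None of the 5 peaks of CYP4F12 passed 0.76, a linear fold of 1.69. Outside that peak the folds of both genes were low, at 0.62 and 0.45 for the other peaks of CYP4F3 and 0.51 to 0.76 for those of CYP4F12. The midpoints of the CYP4F12 peaks lay between 27.3 and 42.6% of its span, whereas the strong CYP4F3 peak was centred at 86.0%. CYP4F genes are close copies in sequence, so reads can be split between them too. CYP4V2 had 4 peaks, at 2.30 (adjusted p 0.0058) and 1.19 in the 3' UTR, 1.89 in an intron and 1.60 in a coding exon. Its listed span overlapped KLKB1 (0.722 FPKM) on the same strand.

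In the bile acid enzymes the most abundant member had the weakest peaks. CYP27A1 had 0.53 and 0.44, both in a 3' UTR, under the lower quartile of 0.95 for coding genes between 10 and 30 FPKM. CYP39A1 had 4 peaks, led by 2.54 in the 5' UTR (adjusted p 1.2e-22), with 1.32 in the 3' UTR and 1.16 and 0.64 in coding exons. CYP7B1 and CYP46A1 had none. CYP51A1, outside the rule but the most abundant P450 gene at 63.4 FPKM, had 4 peaks of at most 0.46.

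Of the vitamin and hormone enzymes, CYP2R1 had the strongest peak, 2.77 (6.83-fold, adjusted p 4.7e-40), given to the 5' UTR of a transcript marked for nonsense-mediated decay at 8.56% of the span. Its other peaks were 1.02 and 0.75. The retinoid enzymes with a peak had strongest peaks below the lower quartile of coding genes of similar level. CYP26B1 had 4 peaks, all in the 3' UTR, at 1.18, 1.13, 0.67 and 0.51, and CYP26A1 had 1.92 in a coding exon and 1.47 in a 3' UTR, with adjusted p 0.011 and 0.033. CYP19A1 had 1 peak of 1.78, 35334 nt long with its introns, which overlapped a peak of MIR4713HG (2.48 FPKM) on the other strand. CYP20A1 had 11 peaks, the most of any member, 10 of them in the 3' UTR. Only 1 passed 4-fold, at 2.11 with an adjusted p of 0.014 at the very end of the gene, and the others lay between 0.70 and 1.21.

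Peaks that hold a RefSeq transcript start can be set beside sequence. RefSeq start windows (GRCh38.p14), matched by symbol, exist for 23 members, and the first 30 transcribed bases of 6 windows in 4 members fell inside a peak of the same gene. On the transcribed strand alone these bases were searched for the first 4 letters of the m6A consensus known as DRACH, which are any base but C, then A or G, then AC. In the full consensus the base that follows is not G. Of the 6 windows 3 held one, and 41.2% of all 35116 windows did. The peaks run across introns, so a window inside one need not be where its reads lie. Their midpoints lay at 6.39 (CYP39A1), 20.3 (CYP2J2), 30.7 (CYP20A1) and 33.5% (CYP19A1) of the gene's span. The 3 windows are printed 5′ to 3′ to show what such letters look like there, with the matching letters in capitals.
CYP2J2 (chr1:59926744-59926773, minus strand): gcagaagagcaggaGGACgtctgagccatg
CYP20A1 (chr2:203239018-203239047, plus strand): gctggagcggccgatccgAGACgtggctcc
CYP19A1 (chr15:51288309-51288338, minus strand): gctttGGACagtgggcagagcggtggcagc
In CYP19A1 the next base completes the consensus, and in CYP2J2 and CYP20A1 it is a G, which does not. CYP39A1, with the strongest 5' UTR peak of the 4 (2.54), held none of the letters in that window. A match is a description of the letters and not a mapped site.

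Along the transcripts the members' peaks fell much as those of other genes did. Of the 63 peaks 36 were in a 3' UTR (57.1%, exact binomial 95% interval 44.0 to 69.5%), 16 in coding exons (25.4%), 8 in 5' UTRs (12.7%) and 3 in introns, by the authors' region for each peak. Over all peaks of coding genes the shares were 55.6, 23.6 and 14.0% for the 3' UTR, coding exons and 5' UTR. CYP20A1 held 10 of the 36, and without it the 3' UTR share was 50.0%, a comparison added after the values were seen. A 3' UTR label did not always mean the end of the gene. Of the 36, 17 had their midpoint in the last 10% of the genomic span (47.2%, and 57.4% over coding genes), and 8 (22.2%, and 24.9% over coding genes) were given to a transcript marked for nonsense-mediated decay, in CYP4F12 (3), CYP2J2, CYP2R1, CYP20A1, CYP26A1 and CYP27A1. A peak on the other strand overlapped 2 of the 63 (3.17%), in CYP1B1 and CYP19A1, and 8.96% of the peaks of coding genes. The transcript given to the peak was among those the gene table lists for 53 of 63 peaks (84.1%), and for 78.0% over coding genes. The interval covers counting error only. It treats the 63 peaks as independent although they come from 20 genes, so it may be too narrow.

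**Figure D3:**
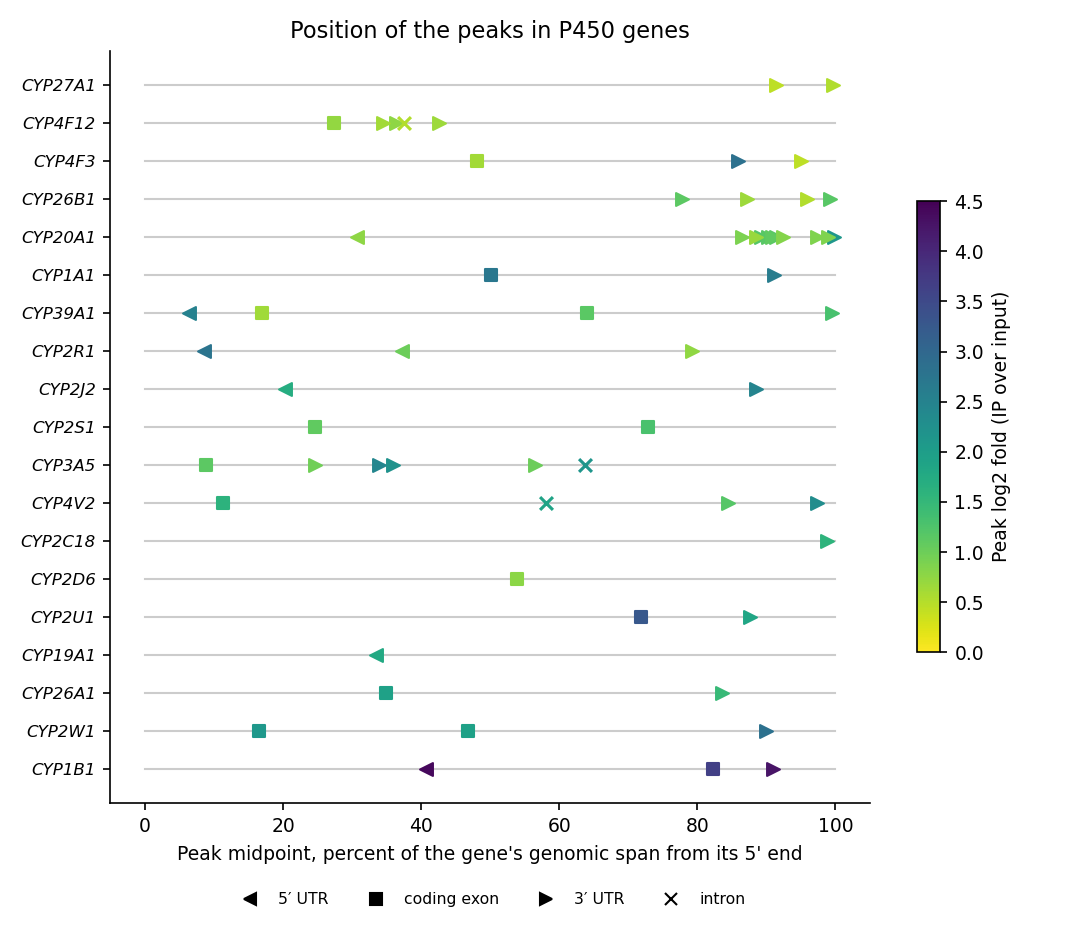
Midpoint of 61 of the 63 peaks along the genomic span of its gene (x axis, percent from the 5' end), 1 row per P450 gene in order of level, highest at the top. Marker shape gives the authors' region and colour the log2 fold of IP over input, and the 10 markers at the right of CYP20A1 are its 3' UTR peaks.

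The transcripts of the proteins that serve P450 enzymes were all listed at 1 FPKM or more. All 9 electron partners reached that level, as did 74.7% of listed coding genes, and their median was 7.51. POR, the reductase of the microsomal P450 enzymes, stood at 17.1 FPKM with a strongest peak of 1.45 (adjusted p 0.048), and a lower 3' UTR peak of 1.20 had an adjusted p of 8.2e-35. CYB5R3 (0.70), CYB5B (0.71), CYB5A (0.86) and the mitochondrial ferredoxin FDX1 (0.82) had weak peaks, FDX2 had none, and the ferredoxin reductase FDXR had 2.07. The haem-binding proteins PGRMC1 and PGRMC2 differed, at 0.60 with 35.3 FPKM and 2.77 with 7.51 FPKM. Of these 9 genes 2 had a 4-fold peak (22.2%, and 39.2% over listed coding genes). Their median strongest peak was 0.84, and that of coding genes at 1 FPKM or more was 1.76. The 10 genes of haem synthesis and breakdown were all expressed, as were 74.7% of listed coding genes. All 10 had a peak, as did 96.2% of coding genes at 1 FPKM or more. In 1 of the 10 the peak passed 4-fold (10.0%, and 39.2% over listed coding genes). That was HMOX2 at 2.01, while ALAS1, the rate-limiting enzyme, stood at 25.8 FPKM with 0.64, and the inducible haem oxygenase HMOX1 at 19.7 with 0.62. The list median was 1.41. Neither list was matched to coding genes by level. Among coding genes with a peak, the median strongest peak was lower at higher levels. It was 2.15 between 1 and 3 FPKM, 1.80 between 3 and 10, 1.44 between 10 and 30 and 1.04 from 30 up.

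The transcription factors that regulate P450 genes often had a peak past 4-fold. Of 14 regulators 13 were listed, 10 at 1 FPKM or more, and 9 of the 13 had a 4-fold peak (69.2%), while 34.4% of P450 genes and 39.2% of listed coding genes did. The lists differ in level, as 16 of the 32 P450 genes reached 1 FPKM, and of those 16 the share with a 4-fold peak was 50.0%. The 4-fold share of coding genes at 1 FPKM or more is not given here, and the 39.2% covers all levels. Genes without a peak count in these shares. Among genes with a peak, the median strongest peak was 2.27 over the regulators, 2.21 over P450 genes and 1.90 over coding genes. These differences were not tested. HNF4A, a master regulator of hepatocyte genes, had 2.23 at 55.1 FPKM, and CEBPA 4.64 at 139.8 FPKM, a peak that overlapped one on the other strand. AHR, the receptor upstream of CYP1A1 and CYP1B1, stood at 10.9 FPKM with 2.46 in its 3' UTR (adjusted p 6.7e-117), which also overlapped a peak on the other strand, its partner ARNT at 7.48 with 1.43 (adjusted p 0.051), and the AHR repressor AHRR at 0.0354 with no peak. Of the drug sensors NR1I2, known as PXR, stood at 0.909 FPKM with 1.98, and NR1I3, known as CAR, was not listed but had a peak of 2.45, which overlapped one on the other strand. NR5A2 (9.44 FPKM, 3.60), NR1H4 (9.34, 1.25) and NR0B2 (1.64, 3.05) regulate bile acid synthesis, in which CYP7A1 and CYP8B1 were not listed. RXRA (2.18), NR1H3 (2.16), PPARA (2.31, adjusted p 0.014) and VDR (2.65) each passed 4-fold as well.

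**Figure D4:**
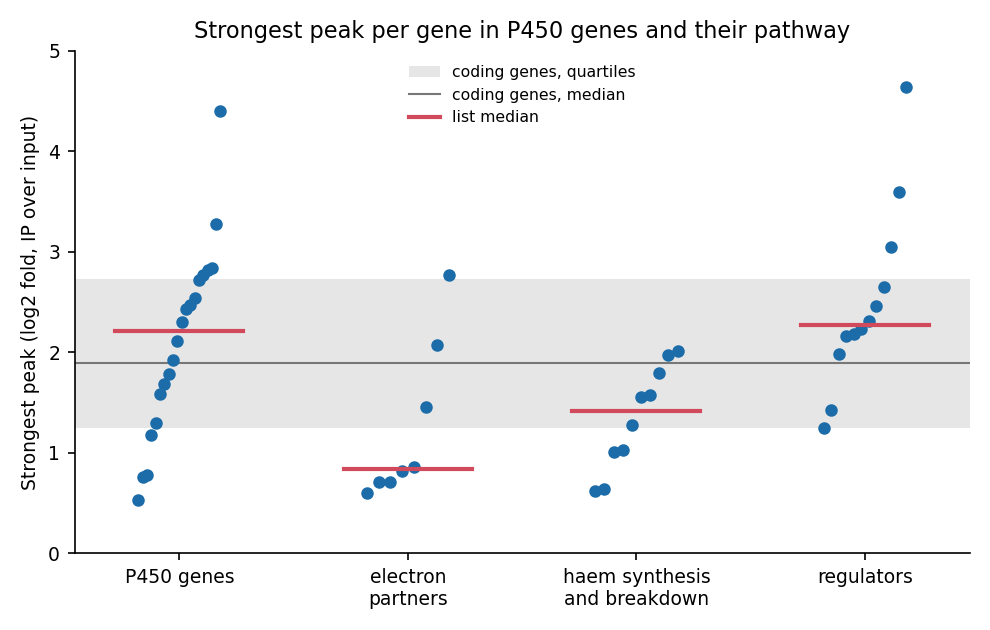
Strongest peak per gene (y axis, log2 fold of IP over input) in P450 genes and 3 related lists, 1 point per gene with a peak and a listed level. The red bars are list medians, 2.21 for P450 genes, 0.84 for electron partners, 1.41 for haem synthesis and breakdown and 2.27 for regulators, and the grey band spans the quartiles of coding genes, 1.25 to 2.72.

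Relatives outside the symbol rule included enzymes, pseudogenes and antisense genes. PTGIS, the prostacyclin synthase, is a P450 enzyme by fold and stood at 1.34 FPKM with a 3' UTR peak of 2.99, and TBXAS1, the thromboxane synthase, stood at 0.200 with none. Of the listed P450 pseudogenes CYP51A1P1 (1.03), CYP51A1P2 (0.853), CYP4F10P (0.697) and CYP46A4P (0.693) were highest, and none of these had a peak. The antisense gene CYP2U1-AS1 (0.0762 FPKM) had a peak of 2.22 (adjusted p 0.0014), which overlapped a peak of SGMS2 on the other strand.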

How the data were processed

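Huh-7 RNA depleted of ribosomal RNA gave 1 m6A IP and 1 input library, prepared by a method that keeps the strand, per the labels' protocols; use of strand in calling peaks is not stated. Per the submitters' processing notes the tools were fastp, FastQC, HISAT2, HOMER, StringTie and edgeR, with no roles or versions. No source used here states the settings, the scaling of IP against input, or the genome build. FPKM values in the deposited gene table cover the input library alone. For each peak the authors deposited a log2 fold (IP divided by input) with its p-value, raw and adjusted; these describe peaks only. The largest raw p was 0.0500 and the smallest log2 fold 0.15. FPKM carries no read counts, so depth is unknown.

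Deposited starts fell 1 base before the listed gene start in 3007 peaks and on it in 0, so 1 was added to each start. Of 12290 listed genes with a RefSeq start window in GRCh38.p14, 4417 had their 5' end exactly on that start. Peaks were joined to genes by Ensembl ID and biotypes taken by symbol (pandas 2.3.3, Python 3.11.15). The share of peaks in 3' UTRs carries an exact binomial 95% interval (scipy 1.17.1). The 95% interval of the median strongest peak is over member genes, with ends at the values of CYP2C18 and CYP1A1. Members were named, except that 1 result is not reported here although it stays in the counts; of the partner, haem and regulator lists, genes at 1 FPKM or more could be named, and AHRR, NR1I2, NR1I3 and VDR were added outside that rule after their values were seen. Other level limits, peak limits and peak sets were tried as alternatives. Members and lists were chosen with earlier results of these data known. The strand overlap step was checked on simulated intervals.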

Additional observations from a re-analysis of the deposited data

Results flagged for a closer look

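Of the 23 protein-coding P450 genes with no listed level, 2 carried peaks. The share of other unlisted coding genes with a peak is not given here, so 2 of 23 cannot be called many or few. CYP2F1, a lung enzyme, had 1 peak of 3.81 on the log2 scale (14.0-fold, adjusted p 1.2e-06) in a coding exon at chr19:41116484-41122086. CYP2A6, an adult liver enzyme, had 2 coding exon peaks of 1.89 and 1.46 (adjusted p 0.0071 and 0.0053). Both were singled out because they lie outside the genes with a level, so the input level beside each fold is not known. CYP2A6 has close copies nearby and its reads can be shared with them. The P450 pseudogenes CYP2F2P (2.03 and 1.73) and CYP2T1P (1.55), also on chromosome 19 and without a listed level, had peaks too. No cause was tested.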

How the results depend on the processing

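The 5 counts and values that sum up the members were recomputed under 23 alternatives, 1 of them added after the data were seen, and 20 stayed within 1.5 times the count or within the 95% interval of the value. The other 3 follow from their construction. At 5 FPKM or more 4 members were counted in place of 16. At a log2 fold of 1 or more 17 members had such a peak in place of 11. With each gene's median peak the median over members was 1.57 in place of 2.21 (95% interval 1.58 to 2.71). That interval covers the spread among member genes within 1 library of each kind, so it is no measure of replicate error. With peaks of adjusted p under 0.001 alone, 14 members had a peak and 9 a 4-fold peak. All 63 peaks lay inside the span of their gene, so alternatives keeping only such peaks could not differ, though they count among the 20. Also among the 20 are the counts over the 16 members at 1 FPKM or more, 14 with a peak and 8 with a 4-fold peak. As shares these were 87.5% and 50.0%, against 62.5% and 34.4% of all 32 members. Of coding genes at 1 FPKM or more 96.2% had a peak, and their 4-fold share is not given here. No paired analysis was possible because each group has 1 library. Read depth is unknown, so folds of members under 1 FPKM carry no stated precision.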
